A study of Mus musculus with 9 samples.

Results

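The insulin-like growth factor (IGF) system was followed through 10 genes of the deposited mouse count table, found by their symbols among its 55453 lines: the ligands Igf1 and Igf2, the receptors Igf1r and Igf2r, and the binding proteins Igfbp2, Igfbp3, Igfbp4, Igfbp5, Igfbp6 and Igfbp7. All 10 had a line in the table. After a filter on low counts, 7 of the 10 were tested, and Igf2, Igfbp2 and Igfbp3 were not. RNA came from ST2, a wild-type stromal line derived from mouse marrow culture, sequenced in 9 libraries that formed 3 groups of 3. The first group held unfed ST2 cells at 24 h (unfed). The others held cells given human neutrophils at 10 per ST2 cell for 3 h (fed 3 h) or 24 h (fed 24 h) and sorted as positive for uptake of the neutrophil dye, at or above the signal of a whole neutrophil. The neutrophils had been kept frozen for at least 18 h, which makes them end-stage in the terms of the study, and stained with eFluor670 at 20 µM. ST2 is a single established line, no unfed library was collected at 3 h, and the labels give replicate numbers without stating separate cultures, so p-values measure only the spread between these libraries.

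IGF1 and IGF2 are small secreted hormones that signal growth and survival through the tyrosine kinase receptor IGF1R. IGF2R is a receptor without kinase activity that removes IGF2 and also carries lysosomal enzymes tagged with mannose 6-phosphate. The binding proteins IGFBP1 to IGFBP6 hold the ligands with high affinity outside the cell, and proteases such as pappalysin release them, while IGFBP7 binds IGFs only weakly. In bone and marrow stroma the system is known for supporting osteoblasts, and IGFBP5 and the ligands are stored in bone matrix.

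Total counts ran from 44442664 to 55971275 per library. Levels are CPM (counts per 1000000 of library size, after TMM scaling) and, where genes are compared with each other, CPM per kb of exon. Below, called means an adjusted p under 0.05 in the quasi-likelihood test of edgeR over all 13568 genes tested. The 10 markers of stroma summed to between 25762 and 33690 CPM in every library, mostly from Col1a1, Col1a2 and Cxcl12. Eng, Nt5e and Lepr were low, with group means of 0.906 to 2.62 CPM, and Thy1 had at most 1 count in any group. Of 10 mouse neutrophil markers S100a9 was at 0 and the sum was 0.817 to 4.31 CPM, mostly from Camp. The neutrophils given were human, so these mouse genes do not measure RNA carried in from them, which was not tested. Of 10 macrophage markers Adgre1, Fcgr1 and C1qa were at 0, and 8 endothelial markers summed to at most 0.658 CPM. Unfed replicate 1 stood apart: on the first principal component, with 62.3% of the variance, it lay at -20.7, against -6.13 and -7.51 for the other unfed libraries and -31.2 to -29.5 for fed 24 h. For the IGF genes, each value against unfed cells is therefore also given without it, and for other genes where that changed a call.

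The system of these cells consisted, at the RNA level, of a strongly expressed Igfbp7, both receptors, and low levels of Igf1 and of 3 high-affinity binding proteins. Igfbp7 had 175 ± 4.37 CPM per kb of exon in unfed cells (SD, n = 3, as for all groups below), which was 8.56 times the level of Igf2r. Igf2r followed with 20.5 ± 0.410 CPM per kb and Igf1r with 3.91 ± 0.376 CPM per kb. Below them came Igfbp6 (0.793 ± 0.199), Igfbp5 (0.404 ± 0.204), Igfbp4 (0.368 ± 0.128) and Igf1 (0.243 ± 0.0393 CPM per kb). In the unfed group the upper 3 levels were each separate from the next, while each neighbouring pair among the lower 4 overlapped between libraries. The order changed only among the low genes: Igfbp5 was level with Igf1 at the bottom in fed 3 h cells (0.109 ± 0.0341 and 0.101 ± 0.0328 CPM per kb, overlapping) and stood next after Igf1r in fed 24 h cells (1.07 ± 0.0868 CPM per kb, above Igfbp6 in every library).

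**Figure D1:**
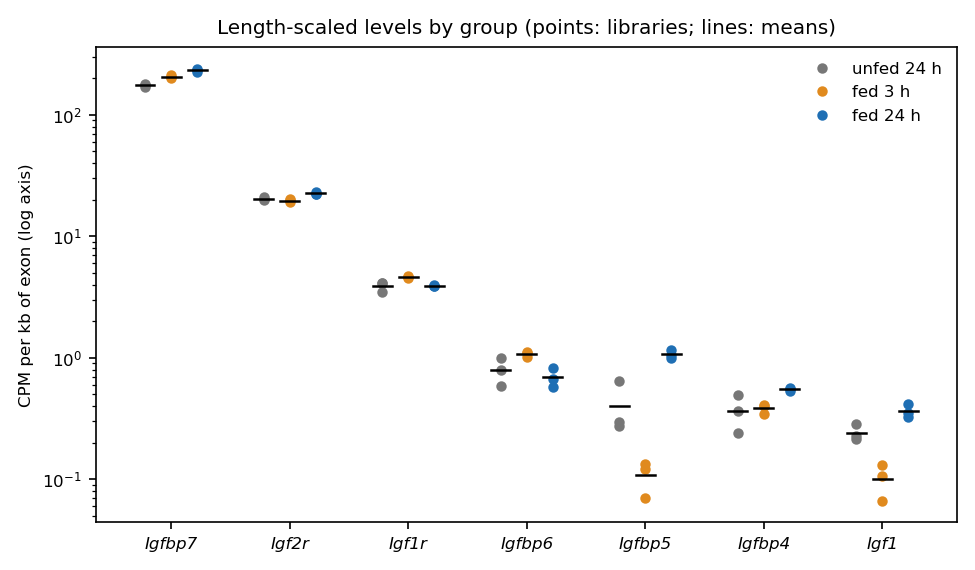
Level of the 7 tested IGF genes in CPM per kb of exon on a log axis, with 1 point per library and a line at the mean of each group of 3. Igfbp7, Igf2r and Igf1r keep their order in the 3 groups, whereas Igfbp5 moves from 0.109 in fed 3 h to 1.07 in fed 24 h.

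At 24 h, with time matched, 5 of the 7 tested genes rose and 0 fell in fed against unfed cells: Igfbp5, Igf1, Igfbp4, Igfbp7 and Igf2r. Over all tested genes, 14.9% were called higher, 15.9% lower and 30.8% in either direction. Without unfed replicate 1 the number of members called was again 5, and it was 3 when unfed replicate 2, unfed replicate 3 or fed 24 h replicate 1 was left out. The median log2 fold change of the 7 was 0.41, against -0.0013 over all genes. Because the fed cells were also selected for uptake, feeding and selection cannot be told apart. In bulk RNA, a change in the number of cells that express a gene and a change in RNA per cell cannot be told apart either. Mitochondrially encoded genes took 1.78 to 2.22% of counts in fed 24 h and 1.48 to 1.61% in unfed libraries, and the ribosomal RNA linked genes Gm42418 and Gm26917 took 0.201 to 0.350% and 0.0904 to 0.115%. Their part in these rises was not tested.

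Cells fed for 3 h were compared with the unfed cells of 24 h, so feeding, selection and time cannot be told apart there. Of the 7 tested genes, Igfbp7 and Igf1r rose and Igfbp5 and Igf1 fell, 4 of 7 in a comparison that called 50.6% of all genes (25.1% higher and 25.5% lower). Without unfed replicate 1, Igfbp6 was called too. Fed 24 h against fed 3 h cells, both sorted, called all 7 tested members, 5 higher and 2 lower, where 60.9% of all genes were called (30.8% higher and 30.2% lower). The 3 comparisons share libraries and are set side by side below as descriptions of the same 9 libraries.

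**Figure D2:**
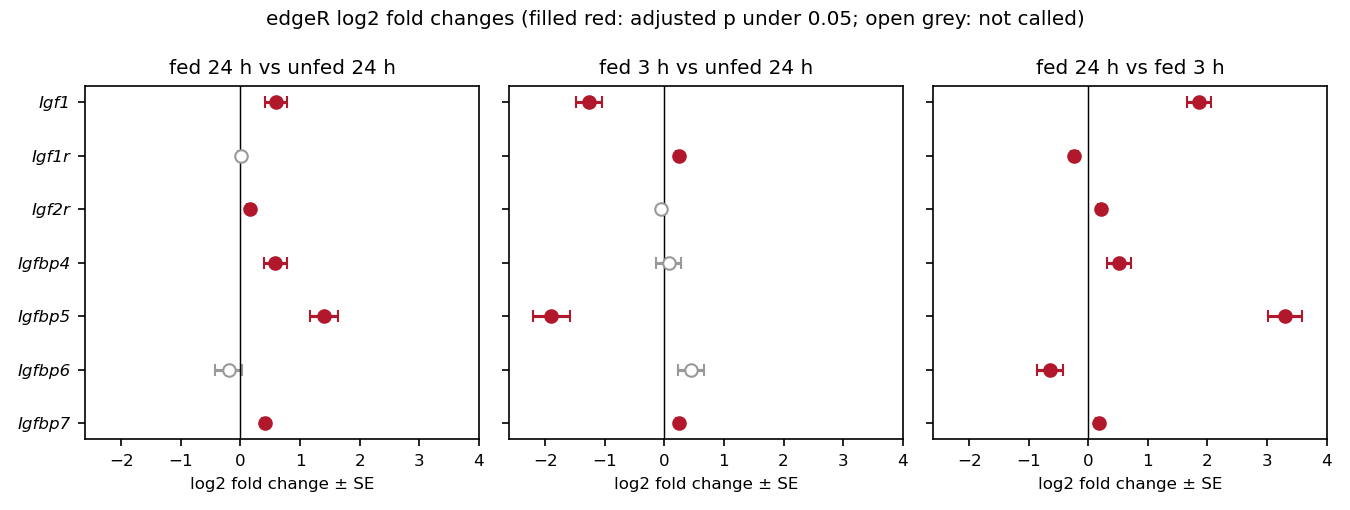
Log2 fold change with its standard error for the 7 tested IGF genes in the 3 comparisons (edgeR; filled points are called, open points are not). Igfbp5 has the largest change in each panel, at 1.41, -1.90 and 3.30.

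Among the ligands, Igf1 was low but counted in every library. It stood at 2.85, 2.12 and 2.25 CPM in unfed replicates 1 to 3, at 1.05, 1.31 and 0.659 CPM in fed 3 h and at 4.17, 3.25 and 3.51 CPM in fed 24 h, from 33 to 209 counts per library. The 3 groups did not overlap, with fed 3 h lowest and fed 24 h highest. At 24 h Igf1 rose by 0.60 on the log2 scale (SE 0.184, edgeR adjusted p = 0.0221), a 1.51-fold higher level. This call was lost when unfed replicate 2, unfed replicate 3 or fed 24 h replicate 1 was left out (0.50 to 0.56, adjusted p up to 0.103), and without unfed replicate 1 the value was 0.74. In fed 3 h cells Igf1 fell by 1.26 (SE 0.213, edgeR adjusted p = 0.000145), and by 1.13 without unfed replicate 1. Over single libraries left out, this value ranged from -1.49 (without fed 3 h replicate 2) to -1.03 (without fed 3 h replicate 3). Between 3 h and 24 h of feeding Igf1 rose by 1.86 (SE 0.204, edgeR adjusted p = 1.10e-06). Macrophages can also make IGF1, and the summed macrophage markers ran from 23.3 to 25.4 CPM for unfed, 27.8 to 28.9 CPM for fed 3 h and 24.7 to 28.1 CPM for fed 24 h libraries, most of it Cd14. The markers did not move as a group. Lyz2, with 4.34, 2.74 and 6.73 CPM in unfed, fed 3 h and fed 24 h cells, and the neutrophil marker Camp, with 2.54, 0.911 and 3.56 CPM, had their lowest means in fed 3 h, as Igf1 did. Cd14 (18.4, 23.4 and 18.3 CPM), Cd68 (1.21, 1.75 and 1.29 CPM), Csf1r (0.157, 0.349 and 0.223 CPM) and Mrc1 (0.0870, 0.123 and 0.106 CPM) had their highest means there. Their part in the Igf1 result was not tested.

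Igf2, the ligand best known from fetal growth, had 0 counts in all 9 libraries, which allows up to 3 counts per library, or 0.0536 to 0.0667 CPM by counting error alone. Of its exon length, 62.8% is shared on the same strand with the annotated gene Gm49394 (2 counts in all), and reads there may have been assigned to neither gene. The limit therefore applies to reads assigned to Igf2. H19, the imprinted neighbour of Igf2, also had 0 counts. Igf1 lies on chromosome 10 from 87858265 to 87937042 and Igf2 on chromosome 7 from 142650766 to 142666816 (GRCm38, GENCODE M21, as for all genes below).

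The receptors moved little. Igf1r (chromosome 7, 67952827 to 68233668) stood at 58.3, 69.3 and 69.1 CPM in unfed, 79.7, 77.7 and 76.0 CPM in fed 3 h and 66.9, 65.2 and 66.0 CPM in fed 24 h libraries. The fed 3 h libraries were the highest and overlapped with neither of the other groups, and unfed replicate 1 was the lowest of all 9. Igf1r rose in fed 3 h cells by 0.25 (SE 0.0578, edgeR adjusted p = 0.00219), or by 0.17 without unfed replicate 1. It was 0.24 lower at 24 h than at 3 h of feeding (log2 -0.24, SE 0.0575, adjusted p = 0.00214). At 24 h against unfed it was not called (0.01, SE 0.0579, adjusted p = 0.916), and without unfed replicate 1 the value was -0.066.

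Igf2r (chromosome 17, 12682406 to 12769664) stood at 187, 194 and 190 CPM in unfed, 185, 189 and 177 CPM in fed 3 h and 209, 217 and 209 CPM in fed 24 h libraries. All fed 24 h libraries lay above the other 6, which overlapped. It rose at 24 h by 0.15 (SE 0.0408, edgeR adjusted p = 0.00995), a 1.11-fold higher level, and by 0.14 without unfed replicate 1, while 47.1% of all genes had a change at least as large in either direction. Against fed 3 h it was 0.21 higher (SE 0.0408, adjusted p = 0.000381), and in fed 3 h against unfed cells it was not called (-0.053, adjusted p = 0.301; -0.068 without unfed replicate 1). Per kb of exon, the ratio of Igf2r to Igf1r was 5.27 ± 0.450 in unfed cells, 4.26 ± 0.109 after 3 h of feeding and 5.79 ± 0.202 after 24 h. That ratio was lower in every fed 3 h library (4.18 to 4.38) than in any other library (4.96 to 6.02). Its size depends on the exon length used, which for Igf1r was 16791 bases by union and 11409 for the longest transcript. The order of the libraries does not depend on it.

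**Figure D3:**
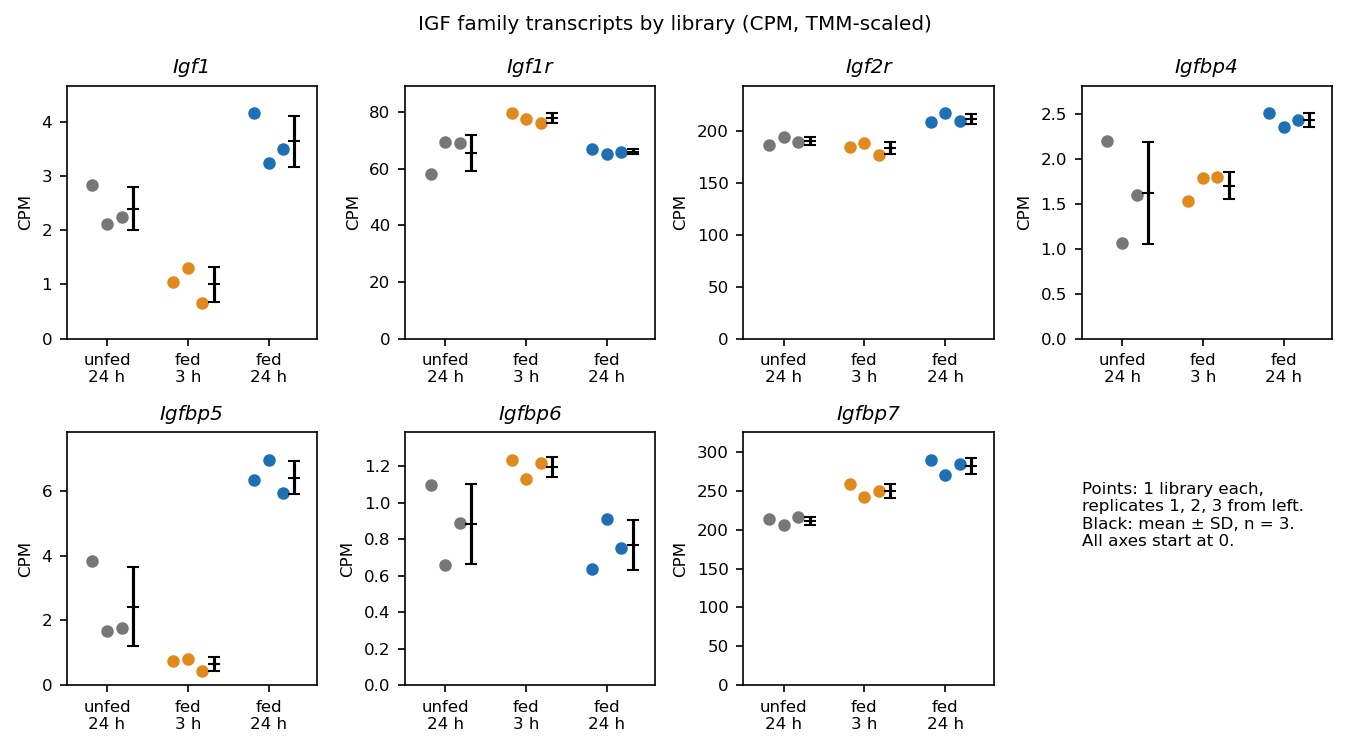
CPM of the 7 tested IGF genes in each of the 9 libraries, with the mean and SD of each group of 3 in black and all axes starting at 0. Igf1 and Igfbp5 are lowest in fed 3 h and highest in fed 24 h, Igf1r and Igfbp6 have their highest means in fed 3 h, and Igfbp7 is stepwise higher from unfed to fed 3 h to fed 24 h.

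The promoters of the binding proteins that rose at 24 h, and a site before Igf1, are shown because these genes moved in the same direction there, from different levels. The RefSeq promoter table (GRCm38.p6) held all 10 members, with 14 start sites. The 250 bases before each start were searched on both strands for TATAAA (as in a TATA box), GGGCGG (GC box), GCCNNNGGC (AP-2), TGANTCA (AP-1), TGACGTCA (CRE), GTAAACA (FOXO), TTGCNNAA (C/EBP) and CACGTG (E-box). Each line runs 5′ to 3′ on the gene's strand, with matches in capitals, and none of the matches in these lines overlaps another. For Igfbp5 19 bases of annotated exon were left off, and for Igf1 only 30 bases around the match are given, since its window lies in an annotated exon.
Igfbp5: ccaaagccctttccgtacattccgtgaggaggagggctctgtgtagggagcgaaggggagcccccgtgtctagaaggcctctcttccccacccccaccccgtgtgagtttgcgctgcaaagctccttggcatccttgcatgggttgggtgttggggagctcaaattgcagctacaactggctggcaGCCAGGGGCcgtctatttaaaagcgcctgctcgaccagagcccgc
Igfbp4: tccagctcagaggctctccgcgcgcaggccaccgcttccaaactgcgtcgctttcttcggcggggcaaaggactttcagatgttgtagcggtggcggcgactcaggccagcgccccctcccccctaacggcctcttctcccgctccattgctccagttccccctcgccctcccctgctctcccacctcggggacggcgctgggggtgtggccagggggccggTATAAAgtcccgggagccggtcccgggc
Igfbp7: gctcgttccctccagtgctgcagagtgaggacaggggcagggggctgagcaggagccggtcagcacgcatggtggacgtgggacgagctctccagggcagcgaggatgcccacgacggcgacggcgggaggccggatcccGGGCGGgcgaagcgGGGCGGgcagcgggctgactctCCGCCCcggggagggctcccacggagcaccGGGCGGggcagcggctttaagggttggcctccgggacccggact
Igf1: gagctggaactTGAATCActattctggata

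The Igfbp5 line is chr1:72874885-72875115 (minus strand), Igfbp4 chr11:99040994-99041243 (plus strand), Igfbp7 chr5:77408046-77408295 (minus strand) and Igf1 chr10:87861063-87861092 (plus strand). Igfbp5 held 1 match, to the AP-2 motif, found in 13.7% of all 32851 windows of this length. Igfbp4 held a TATA box 28 bases before its start, a motif found in 12.4% of windows. Igfbp7 held 4 GC boxes and no other match, and 32.7% of windows hold at least 1 GC box. The Igf1 window held 1 AP-1 match, 37 bases before the start, a motif of 6.75% of windows. G and C made up 58.8% of the Igfbp5, 69.2% of the Igfbp4 and 74.0% of the Igfbp7 window, against a median of 52.4% over all windows. None of the 8 motifs was found in more than 1 of these 4 windows. The window of Igf2r, which also rose at 24 h and is not shown, held 3 GC boxes, the motif found in Igfbp7, and 2 E-boxes. A match describes letters only, and no binding was measured.

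Igfbp5 (chromosome 1, 72857932 to 72874884), the binding protein held in bone matrix, changed most. It stood at 3.84, 1.66 and 1.78 CPM in unfed, 0.734, 0.805 and 0.420 CPM in fed 3 h and 6.34, 6.98 and 5.95 CPM in fed 24 h libraries, from 21 to 391 counts. The groups did not overlap, and unfed replicate 1 lay apart from the other unfed libraries, on the side of fed 24 h. At 24 h Igfbp5 rose by 1.41 (SE 0.237, edgeR adjusted p = 0.000524), a 2.65-fold higher level, and by 1.90 without unfed replicate 1. Only 0.464% of all genes had a change as large in either direction. In fed 3 h cells it fell by 1.90 (SE 0.309, adjusted p = 0.000106), and by 1.41 without unfed replicate 1. Between 3 h and 24 h of feeding it rose by 3.30 (SE 0.284, adjusted p = 7.70e-08), a 9.87-fold higher level. The call held in each of the 16 alternatives of each comparison.

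Igfbp4 (chromosome 11, 99041244 to 99054392), an inhibitor of IGF action that pappalysin cuts, stood at 2.20, 1.07 and 1.6 CPM in unfed, 1.53, 1.78 and 1.80 CPM in fed 3 h and 2.51, 2.36 and 2.44 CPM in fed 24 h libraries. Fed 24 h lay above both other groups, which overlapped. It rose at 24 h by 0.59 (SE 0.199, edgeR adjusted p = 0.0348), but this call was lost when unfed replicate 2, unfed replicate 3 or any fed 24 h replicate was left out (0.36 to 0.61, adjusted p up to 0.146). The value without unfed replicate 1 was 0.87. Against fed 3 h it rose by 0.51 (SE 0.197, adjusted p = 0.0335), a call that ended without any single one of the 6 libraries compared (0.44 to 0.55). In fed 3 h against unfed cells it was not called (0.074, adjusted p = 0.790), with a value of 0.36 without unfed replicate 1.

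Igfbp6 (chromosome 15, 102144362 to 102149511), which prefers IGF2 to IGF1, had its highest levels at 3 h. It stood at 1.10, 0.658 and 0.889 CPM in unfed, 1.24, 1.13 and 1.22 CPM in fed 3 h and 0.638, 0.911 and 0.751 CPM in fed 24 h libraries. All fed 3 h libraries lay above the other 6. Fed 24 h cells had 0.64 less than fed 3 h cells (log2 -0.64, SE 0.218, edgeR adjusted p = 0.0192), a call lost when fed 3 h replicate 1, or replicate 1 or 3 of fed 24 h, was left out (-0.61 to -0.52), and in DESeq2 (adjusted p = 0.0518). It was not called in fed 3 h against unfed cells (0.44, adjusted p = 0.105), but was without unfed replicate 1 (0.63, adjusted p = 0.0445), and it was not called at 24 h (-0.19, adjusted p = 0.553), where the value without unfed replicate 1 was -0.00066.

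Igfbp7 (chromosome 5, 77349240 to 77408041), the secreted protein of weak IGF affinity also called IGFBP-rP1, stood at 214, 206 and 216 CPM in unfed, 259, 242 and 250 CPM in fed 3 h and 290, 270 and 284 CPM in fed 24 h libraries. The 3 groups did not overlap, in that order. It rose at 3 h by 0.24 (SE 0.0438, edgeR adjusted p = 0.000300) and at 24 h by 0.41 (SE 0.0438, adjusted p = 1.60e-05), a 1.33-fold higher level. Fed 24 h exceeded fed 3 h by 0.17 (SE 0.0436, adjusted p = 0.00296). Without unfed replicate 1 the values against unfed cells were 0.24 and 0.42. All 3 calls held in each of 16 alternatives. Of its exon length, 7.03% overlaps the opposite-strand gene Polr2b, and whether counting used strand is not given in the sources used here.

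Non-overlap of 2 groups was common over the table. It held for 43.2% of genes at 24 h and for 58.2% at 3 h, both against unfed, and for 65.9% between the fed groups. The share of all genes in which the 3 groups all lie apart is not given here. Igfbp3, the main IGF carrier of blood plasma (chromosome 11, 7206086 to 7213923), had 0 counts in all 9 libraries, and Igfbp2 (chromosome 1, 72824503 to 72852474) had 1 count, in fed 24 h replicate 2. Both were thus at or below the limit of 3 counts per library, and a difference was not detectable.

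Per kb of exon, Igfbp7 made up 98.8 to 99.4% of the summed level of the 6 binding proteins in every library. Among the 3 high-affinity members above the limit (Igfbp4, Igfbp5 and Igfbp6), the mix differed between groups. Igfbp6 took 51.5 ± 4.42% of their sum in unfed cells, 68.5 ± 2.68% after 3 h of feeding and 29.7 ± 3.29% after 24 h. Igfbp5 took 25.1 ± 4.88%, 6.93 ± 2.20% and 46.3 ± 1.68% in the same order. The share of Igfbp4 was 23.4 ± 1.53%, 24.6 ± 2.32% and 24.0 ± 2.46%, overlapping between all groups. The leading transcript of the 3 was therefore Igfbp6 in each of the 6 unfed and fed 3 h libraries and Igfbp5 in each of the 3 fed 24 h libraries. These are shares of a sum, so a higher share of a gene does not by itself mean a higher level.

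**Figure D4:**
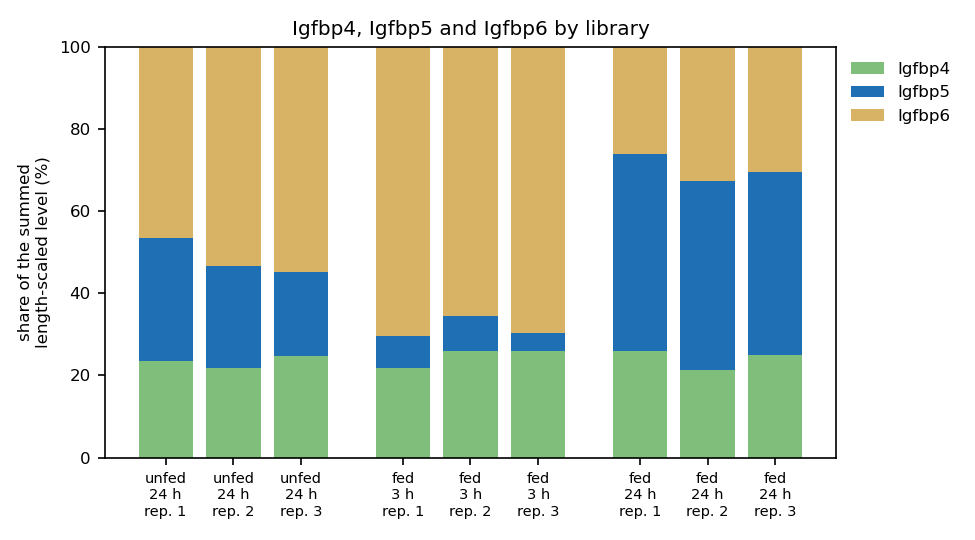
Share of Igfbp4, Igfbp5 and Igfbp6 in their summed CPM per kb of exon, 1 bar per library. Igfbp5 takes 4.44 to 8.62% of the sum in fed 3 h and 44.7 to 48.0% in fed 24 h libraries.

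The ligand and its high-affinity carriers kept similar proportions at 24 h. The Igf1 level was 0.161 ± 0.0290 of the summed CPM per kb of the high-affinity binding proteins in unfed cells, 0.0647 ± 0.0213 of it after 3 h and 0.160 ± 0.0307 of it after 24 h of feeding. The fed 3 h libraries (0.0423 to 0.0847) lay below all others (0.130 to 0.192), which overlapped between unfed and fed 24 h. No test was made of these sums.

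Other genes of the pathway were read from a list of 61, of which 56 were tested. At 24 h against unfed, 11 were higher and 11 lower, 22 of 56, where 30.8% of all genes were called, and the median log2 fold change was -0.016 (all genes -0.0013). At 3 h against unfed, 19 were higher and 24 lower, where 50.6% of all genes were called, 25.1% higher and 25.5% lower (median -0.074, all genes -0.0085). Between the fed groups, 21 were higher and 22 lower at 24 h, where 60.9% of all genes were called, 30.8% higher and 30.2% lower (median 0.019, all genes -0.0017).

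The genes that cut binding proteins or block the cutting moved in different directions. Stc1, a secreted inhibitor of pappalysin, stood at 2.41, 1.07 and 2.07 CPM in unfed, 0.210, 0.239 and 0.280 CPM in fed 3 h and 5.78, 4.77 and 6.01 CPM in fed 24 h libraries, with no overlap between groups. It rose at 24 h by 1.58 (SE 0.207, edgeR adjusted p = 8.12e-05) and fell by 2.91 at 3 h (SE 0.313, adjusted p = 1.88e-06). Pappa, the pappalysin that cuts IGFBP4 and IGFBP5, stood at 24.4, 30.4 and 28.1 CPM in unfed, 23.7, 23.3 and 23.2 CPM in fed 3 h and 19.5, 20.2 and 22.4 CPM in fed 24 h libraries. It was lowest in fed 24 h without overlap, and fell by 0.42 at 24 h (SE 0.0731, adjusted p = 0.000706). At 3 h it fell by 0.24 (SE 0.0730, adjusted p = 0.0127), a call that ended without unfed replicate 2 (-0.16). Between the fed groups its call (-0.18, adjusted p = 0.0483) ended in 9 of 16 alternatives.

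Stc2, the other stanniocalcin, had 1.51 ± 0.626 CPM in unfed, 4.22 ± 0.138 CPM in fed 3 h and 1.25 ± 0.205 CPM in fed 24 h cells. It rose at 3 h by 1.48 (SE 0.222, edgeR adjusted p = 5.05e-05), opposite in sign to Stc1, and was not called at 24 h (-0.28, adjusted p = 0.413), but was without unfed replicate 1 (-0.58), while without unfed replicate 2 the value was -0.0018. Pappa2, a second pappalysin, had 2.65 ± 0.389, 0.833 ± 0.174 and 3.01 ± 0.419 CPM in unfed, fed 3 h and fed 24 h cells. It fell by 1.67 at 3 h (SE 0.190, adjusted p = 3.15e-06) and was not called at 24 h (0.19, adjusted p = 0.413). Htra1, a serine protease that can cut binding proteins, rose at 24 h by 0.32 (SE 0.0838, adjusted p = 0.00945), from 8.67 ± 0.0233 to 10.8 ± 0.567 CPM. Igfals, the third subunit of the plasma complex of IGF and IGFBP3, had 31 counts in all unfed, 5 in all fed 3 h and 66 in all fed 24 h libraries. Igfals fell at 3 h (log2 -2.59, SE 0.628, adjusted p = 0.00281) and was not called at 24 h (0.89, adjusted p = 0.0875), but was without unfed replicate 1 (1.35), in a range of 0.54 to 1.35 over single libraries left out. Igfbp1 had 0 counts.

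Other secreted proteases rose at 24 h: Adamts1, a metalloprotease of matrix proteoglycans, by 0.50 (115 ± 4.72 to 163 ± 5.46 CPM), and Plat, the tissue plasminogen activator, by 0.37. At 3 h Adamts1 fell by 1.03 and Htra3, a relative of Htra1, fell by 1.53 (9.58 ± 1.5 to 3.32 ± 0.183 CPM), while the gelatinase gene Mmp2 rose by 0.65. Plat also rose at 3 h, by 0.51. Plat and Mmp2 were lower in fed 24 h than in fed 3 h cells (log2 -0.14 and -0.39), and the call of Plat there was lost in 3 of 16 alternatives. At 24 h against unfed Mmp2 rose by 0.26 (edgeR adjusted p = 0.0459), a call lost in 11 of 16 alternatives. Both Adamts1 and Htra3 were higher in fed 24 h than in fed 3 h cells, by 1.53 and 1.68. At 24 h against unfed Htra3 was not called (0.15, edgeR adjusted p = 0.282), but was without unfed replicate 1 (0.28). Its range over single libraries left out was 0.049 to 0.28.

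Inside the cell, the insulin receptor gene Insr, whose product can pair with IGF1R, was not called in any comparison (0.062 at 24 h, 0.0055 at 3 h and 0.056 between the fed groups). The adaptor Irs1 was not called at 24 h (0.14, adjusted p = 0.297) or at 3 h (-0.12, adjusted p = 0.322). Between the fed groups it was higher at 24 h (0.25, adjusted p = 0.0290), a call lost in 5 of 16 alternatives (0.17 to 0.25). Irs2, the other main adaptor, rose at 3 h by 0.69 (SE 0.108, edgeR adjusted p = 6.83e-05), from 7.34 ± 1.09 to 11.9 ± 0.321 CPM, and was 0.87 lower again at 24 h than at 3 h of feeding (log2 -0.87). At 24 h against unfed Irs2 was not called (-0.18, adjusted p = 0.252), but was without unfed replicate 1 (-0.29), in a range of -0.29 to -0.081 over single libraries left out.

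Genes of PI3-kinase subunits moved in different directions. Against unfed cells (27.9 ± 5.46 CPM), Pik3cb, a catalytic subunit, was 0.52 higher at 3 h (40.0 ± 1.75 CPM). At 24 h it was 0.69 lower than in unfed cells (17.2 ± 0.533 CPM). Between the fed groups Pik3cb was lower at 24 h (log2 -1.22). The regulatory subunit genes Pik3r3 and Pik3r1 moved the other way. Against unfed cells, Pik3r3 was 0.79 lower at 3 h and 0.41 higher at 24 h. Pik3r1 was 0.71 lower at 3 h and 0.23 higher at 24 h, also against unfed cells. Between the fed groups Pik3r3 and Pik3r1 were higher at 24 h, by 1.2 and 0.94. The other subunit genes of the list, Pik3ca (catalytic) and Pik3r2 (regulatory), are given after their values were seen, and changed less. Pik3ca was lower at 3 h (log2 -0.16, SE 0.0441, edgeR adjusted p = 0.00750), against the direction of Pik3cb, and was not called at 24 h (0.015, adjusted p = 0.830). Against unfed cells, Pik3r2 was lower at 3 h (log2 -0.14, SE 0.0411, edgeR adjusted p = 0.00851) and higher at 24 h (0.13, adjusted p = 0.0246). The call at 24 h was lost in 4 of 16 alternatives: with no filter, and without unfed replicate 3 or replicate 2 or 3 of fed 24 h. Akt1, the kinase downstream, fell by 0.23 at 24 h (SE 0.0508, edgeR adjusted p = 0.00311). Eif4ebp1, a repressor of translation that mTOR inactivates, was 0.59 higher at 3 h and 0.23 lower at 24 h, each against unfed cells. Between the fed groups Eif4ebp1 was lower at 24 h (log2 -0.82). Grb14, an adaptor that inhibits the insulin receptor, rose at 24 h by 0.53 (4.71 ± 0.463 to 6.78 ± 0.173 CPM), and Rack1, a scaffold that binds IGF1R, fell by 0.28. Between the fed groups Rictor, a subunit of mTOR complex 2, was lower at 24 h (log2 -0.50), as was Sh2b2, an adaptor of the insulin receptor (-0.61). Socs2, a feedback inhibitor of growth hormone signalling, rose at 3 h by 0.56, and Stat5a, which acts in the same pathway, fell by 0.47. At 24 h against unfed Socs2 was not called (0.15, edgeR adjusted p = 0.0504). It was called in 8 of 16 alternatives, among them the fit without unfed replicate 1 (0.17). Its range over single libraries left out was 0.12 to 0.17.

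**Figure D5:**
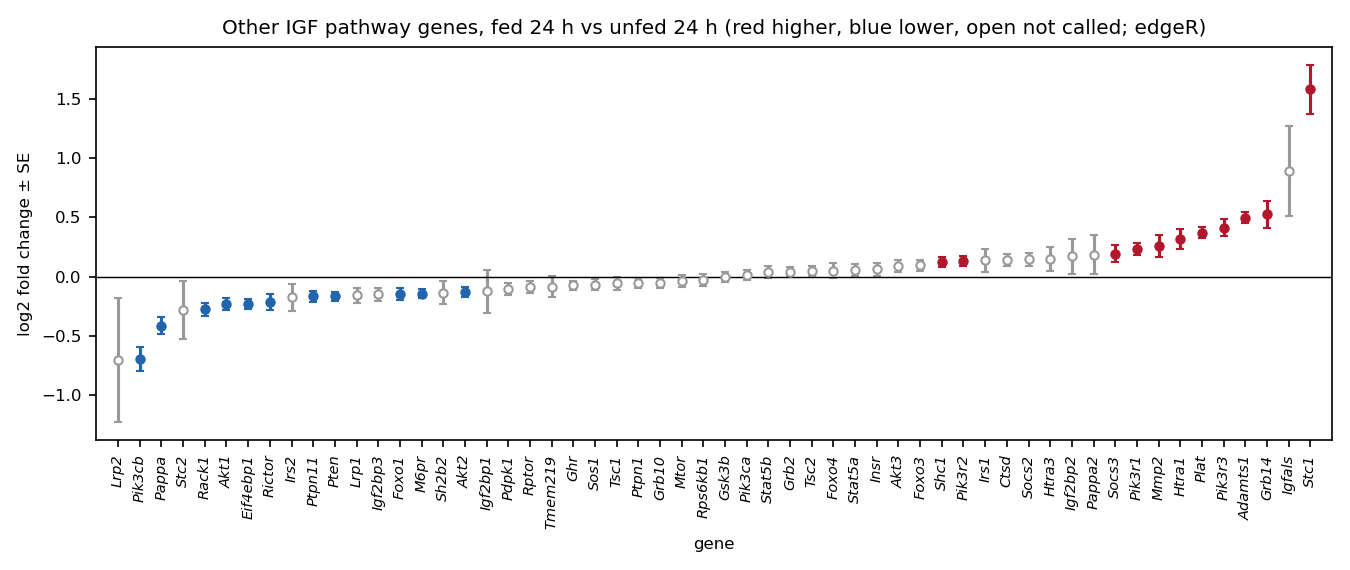
Log2 fold change and standard error of the 56 tested other IGF pathway genes in fed 24 h against unfed cells, ordered by size (edgeR; red higher, blue lower, open not called). Of the called genes, 11 lie above and 11 below 0, from Pik3cb at -0.69 to Stc1 at 1.58.

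The genes most like each member with a mean of at least 5 CPM were sought by Pearson correlation of log2 CPM over the 9 libraries, which share 3 groups and so follow mainly the group means. Closest to Igfbp7 were Adam15 (r = 0.981), Ndufs1 (0.980) and Fstl1 (0.979), and 94 of 9472 genes had r over 0.9. Closest to Igf1r were Whrn (0.981), Tcof1 (0.980) and Axin1 (0.980), and 417 genes had r over 0.9. Closest to Igf2r were Katnal2 (0.971), Hdac8 (0.970) and Elmo2 (0.970), and 149 genes had r over 0.9. Igfbp4, Igfbp5, Igfbp6 and Igf1 were below that level.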

How the data were processed

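For each of 9 libraries, the deposited table gives whole-number counts of reads by gene symbol, neither normalized nor pooled by the authors. MultiQC 1.7, STAR 2.7.0f, featureCounts and Subread 1.6.4 are named in the submitters' processing notes, as are the builds GRCm38.p6 and GRCh38.p13. Not given in the sources used here are the annotation, the strand setting, and the handling of human reads and of reads that map to several places. Per the labels' protocols, libraries were made from 50 ng of RNA with a stranded kit, while the series text gives 1 ng, SMART-Seq v4 and Nextera XT, so strandedness is unresolved. Total counts were 44442664 to 55971275 per library. Limits from counts cover counting error alone, as PCR copies of a molecule were not marked.

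Counts were fitted with edgeR 4.0.16 in R 4.3.3 (glmQLFit and glmQLFTest, TMM factors, filterByExpr) in a single fit of all 9 libraries with group as the only term. The filter kept 13568 genes, over which p-values were adjusted (Benjamini-Hochberg). The code was tested on simulated counts. The alternatives tried were limma-voom (limma 3.58.1), size factors and the Wald test from DESeq2 1.42.0, no filter, a stricter filter (5 CPM in 3 libraries), the replicate number in the model, fits of 6 libraries and leaving out each library. CPM per kb used the union of exons in GENCODE M21 (GRCm38), with the longest transcript as alternative for the shares of the binding proteins. Ratios between genes and the order of their levels were not recomputed with the longest transcript. The members and lists were chosen with earlier results of these data known. Named were all 10 members, fixed carriers, proteases and adaptors, and per comparison and direction the 5 called pathway genes of largest change with a mean of at least 5 CPM. Promoter sequences are those of RefSeq (GRCm38.p6). Motifs were chosen after the data were seen. Protein sequences were not used here.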

Additional observations from a re-analysis of the deposited data

How the results depend on the processing

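Of the 10 IGF genes, 5 were called at 24 h against unfed, 4 at 3 h against unfed and 7 between the fed groups. With the stricter filter, which tests only 4 members, these numbers were 3, 3 and 4. Leaving out single libraries gave 3 to 5, 4 to 5 and 5 to 7. Without unfed replicate 2, unfed replicate 3 or fed 24 h replicate 1, 3 members were called at 24 h, where Igf1 and Igfbp4 were lost. Replicate numbers did not pair the libraries in a way seen in all comparisons. The deviations of libraries with the same number correlated at -0.163 to 0.0578, and at 0.0148 to 0.0578 between fed 24 h and unfed. For fed 24 h and unfed, 4 of 6 libraries correlated best with their own number. The number was 0 of 6 for fed 3 h and unfed and 1 of 6 for the fed groups. With the replicate block 5, 4 and 7 members were called. Of the recomputed values of the members, 306 kept their direction and their side of the threshold, 18 lost the call, 1 gained it and 2 changed sign. The latter were uncalled values, here with their range over single libraries left out: Igf1r at 24 h (-0.066 without unfed replicate 1, up to 0.053) and Igfbp4 at 3 h (-0.16 without unfed replicate 2, up to 0.36). Uncalled values near 0 at 3 h also changed sign without fed 3 h replicate 2 for Grb14 (-0.18 to 0.023), Htra1 (-0.16 to 0.0020) and Insr (-0.041 to 0.056). Insr was also below 0 with the stricter filter (-0.0051) and without unfed replicate 1 (-0.021). Pik3ca at 24 h ranged from -0.0037 (without fed 24 h replicate 3) to 0.047. With the longest transcript, the share of Igfbp4 in all binding proteins was 0.212% (from 0.186%) at 3 h and 0.268% (from 0.235%) at 24 h of feeding, and its share of Igfbp4, Igfbp5 and Igfbp6 (an alternative added after seeing the data) was 26.0, 27.3 and 26.7% in unfed, fed 3 h and fed 24 h cells. No change could be measured for Igf2, Igfbp2 and Igfbp3, with 0 or 1 counts in all, and Igfbp6 had 32 to 61 counts per library. The stricter filter tests fewer genes. For the other changes the cause was not tested.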

Other observations

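Genes of proteins that bind Igf2 mRNA were expressed at the RNA level, although no read was assigned to Igf2 itself. Igf2bp3 had 35.6 ± 2.06 CPM in unfed, 33.6 ± 1.41 CPM in fed 3 h and 32.1 ± 1.2 CPM in fed 24 h cells (SD, n = 3 each). It was not called at 24 h (log2 -0.15, edgeR adjusted p = 0.0514), but was without unfed replicate 1 (-0.19), in a range of -0.19 to -0.11 over single libraries left out. Igf2bp2 stood at 3.42 ± 0.630, 1.29 ± 0.120 and 3.84 ± 0.383 CPM in the same order. It fell at 3 h (log2 -1.41, SE 0.164, edgeR adjusted p = 4.24e-06) and was not called at 24 h against unfed (0.17, adjusted p = 0.403). Igf2bp1 also fell at 3 h (log2 -0.75, SE 0.194, adjusted p = 0.00428), to 0.677 ± 0.0712 CPM. These genes and the 3 that follow were chosen after their values were seen.

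M6pr, the smaller mannose 6-phosphate receptor that shares the lysosomal cargo of IGF2R, moved against Igf2r at 24 h. From 184 ± 2.79 CPM it fell to 166 ± 1.01 CPM (log2 fold change -0.15 with SE 0.0379 and edgeR adjusted p = 0.00916). In that comparison Igf2r rose by 0.15, and the median absolute log2 fold change over all genes tested was 0.14. Ghr, the growth hormone receptor that drives Igf1 in liver, rose at 3 h by 0.19 (SE 0.0404, adjusted p = 0.000991), from 170 ± 3.44 to 194 ± 6.86 CPM, while Igf1 fell. Lrp1, an endocytic receptor that also binds IGFBP3, had 4432 ± 284 CPM in unfed and 3777 ± 264 CPM in fed 3 h cells. It fell at 3 h (log2 -0.23, SE 0.0651, adjusted p = 0.00768) and was not called at 24 h (-0.16, adjusted p = 0.0767), but was with no filter and when unfed replicate 1 or fed 24 h replicate 2 was left out (-0.21 to -0.16), in a range of -0.21 to -0.10 over single libraries left out.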
